A study of Homo sapiens with 6 samples.

Results

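The genes described here are 10 markers of glial identity and of stem-like glioma cells: GFAP, AQP4, S100B, ALDH1L1, SLC1A3, SLC1A2, NES, SOX2, OLIG2 and CNP. They were chosen by name, with earlier results of these data known. Each was represented by its probe set with exactly 1 gene symbol and the highest mean over the arrays. All 10 were found among the 18417 genes measured, each with a single such probe set. Gene expression was measured on Affymetrix arrays in U-87 cells, an established human glioma line that the labels assign to brain. The 3 knockdown arrays carry RNA of cells labelled P68 knockdown, and the 3 others RNA of cells labelled P68 wild type. P68 is the RNA helicase encoded by DDX5. All cells were grown in complete DMEM with fetal bovine serum. The treatment note names transfection with siP68 or with NC and does not say which arrays received NC. No siRNA dose, time of harvest or separate culture is given, so the p-values speak only to array-to-array spread, part of which may be technical. All results come from this single line.

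Astrocytes are recognised by the intermediate filament protein GFAP, the water channel AQP4, the glutamate transporters SLC1A3 and SLC1A2 and the folate enzyme ALDH1L1. Oligodendrocyte lineage cells express the transcription factor OLIG2 and, when they make myelin, the enzyme CNP. Nestin, encoded by NES, and the transcription factor SOX2 mark neural progenitors, and together with OLIG2 they are used as markers of glioma cells with stem-like properties. Glioma lines kept in serum are known to lose part of this glial programme.

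Values are log2 signals made with the RMA method, so a difference of 1 is a 2-fold change. The array medians lay between 4.32 and 4.37. The targeted gene DDX5 gave 9.47, 9.79 and 9.91 on the knockdown arrays and 10.09, 10.25 and 10.30 on the wild-type arrays, which differ by -0.49 ± 0.13 (SE) in log2 at an adjusted p of 0.902 in limma. The groups did not overlap for DDX5, as for 10.1% of all genes, and its mean signal was lower in the knockdown and not lost. The difference was -0.36 without knockdown replicate 1, -0.58 without knockdown replicate 3 and -0.39 with cyclic loess between the arrays.

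No detection calls were used here. As a yardstick for dim signal, the 341 measured olfactory receptor genes were taken, a family used mainly in the nose. Their median lay between 3.05 and 3.14 on the 6 arrays and their 95th percentile between 4.68 and 4.86. A gene was called above the olfactory receptor range when it exceeded that percentile on each of the 6 arrays, which 41.8% of all genes did. Probe sets differ in how strongly they respond, so this call describes each signal and does not rank the genes by abundance. Of the 10 markers, 3 were above the range on all 6 arrays, namely GFAP, NES and CNP. OLIG2 exceeded the percentile on 3 arrays and ALDH1L1 on 1. AQP4, S100B, SLC1A3, SLC1A2 and SOX2 exceeded it on none.

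**Figure D1:**
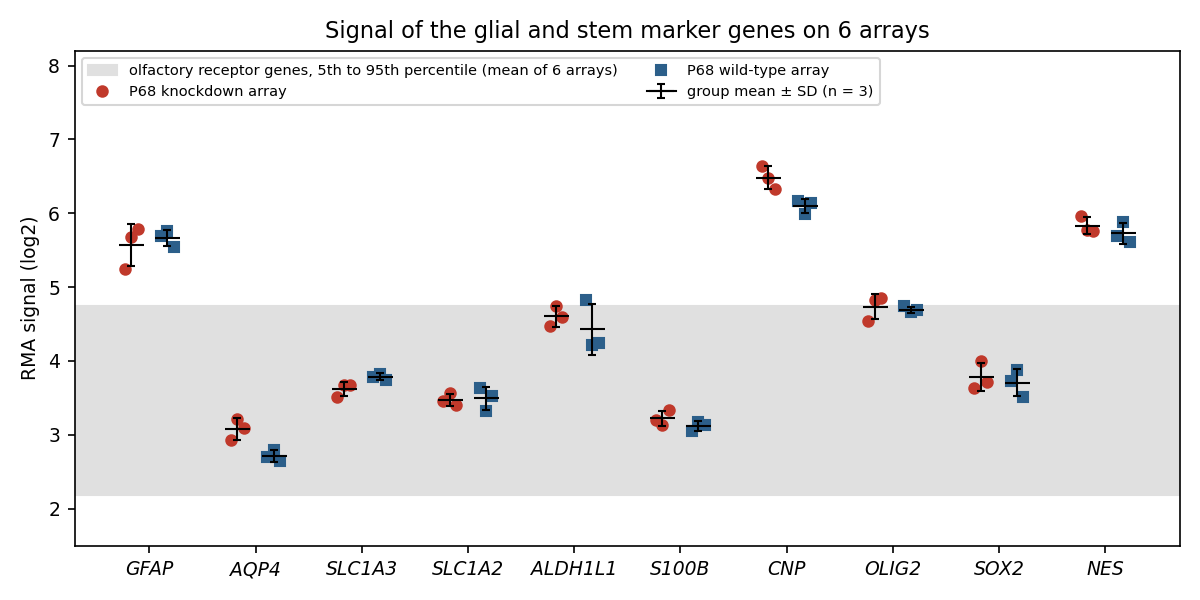
Log2 RMA signal of the 10 marker genes. Each point is an array, with replicates 1 to 3 from left to right in each group, bars give the mean ± SD (n = 3), and the grey band spans the olfactory receptor genes. GFAP, NES and CNP lie above the band on all 6 arrays, and only CNP, AQP4 and SLC1A3 show groups that do not overlap.

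The same yardstick gave mixed results for genes whose state is better known. Of 11 measured genes used in nearly all cells, 8 were above the range, led by the glycolytic enzyme GAPDH with a mean signal of 11.81 and the adaptor protein YWHAZ with 10.79. The other 3, B2M, GUSB and TFRC, were not. B2M is the light chain of the class I histocompatibility complex, and gave 3.41, 3.39 and 3.54 on the knockdown and 3.47, 3.61 and 3.57 on the wild-type arrays. CD44, a hyaluronan receptor typical of mesenchymal glioma cells, gave 3.48, 3.80 and 3.51 on the knockdown and 3.57, 3.62 and 3.56 on the wild-type arrays, also within the range. B2M and CD44 were singled out after their values were seen. A marker within the range is therefore not shown to be silent. U-87 cells are known to express both genes, so the markers checked here do not establish that the RNA on these arrays matches the labelled line or that each probe set reads the gene it is annotated with. Neither was tested, and every signal given here rests on the labels and the annotation. In the other direction, 5 of 13 microglia and macrophage genes (38.5%) were above it, among them the adaptor TYROBP at a mean of 6.18. So were 3 of 15 neuronal genes (20.0%), among them the splicing factor RBFOX3 at 5.76 and the synaptic protein SNAP25 at 5.13. Neither share exceeded the 41.8% of all genes. The mean signal of a gene with several probe sets depends on the choice, and RBFOX3 gave 4.85 when its 3 probe sets were averaged.

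The promoters of the 3 markers whose groups did not overlap are shown, since only for these did the arrays of the groups separate. Each is the 250 bases before the annotated start in RefSeq (GRCh38.p14), 5′ to 3′ on the strand of the gene. Capitals mark matches on either strand to 4 motifs, namely the TATA box TATAAA, the CCAAT box with the letters CCAAT, a STAT factor motif with the letters TTCNNNGAA and the core ACAAT that SOX factors bind. No motif contains another. Promoters of 6 of the 10 markers were matched in the table.
CNP, chr17:41966545-41966794, plus strand: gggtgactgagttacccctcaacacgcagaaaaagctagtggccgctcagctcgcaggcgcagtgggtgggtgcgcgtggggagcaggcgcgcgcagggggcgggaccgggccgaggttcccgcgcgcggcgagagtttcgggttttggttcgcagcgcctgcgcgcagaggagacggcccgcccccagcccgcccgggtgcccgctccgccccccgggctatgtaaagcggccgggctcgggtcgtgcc
AQP4, chr18:26865804-26866053, minus strand: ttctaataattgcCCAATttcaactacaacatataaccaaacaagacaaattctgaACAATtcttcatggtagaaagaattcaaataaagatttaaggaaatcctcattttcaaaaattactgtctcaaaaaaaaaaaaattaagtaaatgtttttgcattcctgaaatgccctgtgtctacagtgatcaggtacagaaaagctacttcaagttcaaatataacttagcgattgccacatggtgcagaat
SLC1A3, chr5:36596338-36596587, plus strand: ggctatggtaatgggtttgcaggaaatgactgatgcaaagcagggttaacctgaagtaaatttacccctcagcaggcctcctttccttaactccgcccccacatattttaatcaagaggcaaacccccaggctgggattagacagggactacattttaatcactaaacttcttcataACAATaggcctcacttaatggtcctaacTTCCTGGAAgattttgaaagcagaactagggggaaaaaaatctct

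The promoters of CNP and AQP4, the pair with higher signal in the knockdown, have little in common. That of CNP holds 33 CpG dinucleotides and 73.6% G and C, and none of the 4 motifs. That of AQP4 holds 1 CpG and 30.4% G and C, with a CCAAT and an ACAAT. The promoter of SLC1A3 holds 1 CpG and 43.2% G and C, with a TTCNNNGAA and an ACAAT. The median over 35116 promoters of this length was 11 CpG, and TATAAA occurred in 10.7% of them, CCAAT in 32.0%, TTCNNNGAA in 6.57% and ACAAT in 24.6%. Among the other matched markers, NES held 8 CpG and an ACAAT, SOX2 held 20 CpG and a CCAAT, and ALDH1L1 held 20 CpG and a TATAAA. A match is a run of letters, not a shown binding site.

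The astrocyte markers divided by signal. GFAP gave 5.25, 5.68 and 5.79 on the knockdown arrays and 5.69, 5.76 and 5.54 on the wild-type arrays. Knockdown replicate 1 was the lowest of the 6 and knockdown replicate 3 the highest, so the knockdown spanned the whole wild-type group. The log2 difference was -0.09 ± 0.14 (SE), with a 95% confidence interval of -0.41 to 0.23, and it moved to 0.07 without knockdown replicate 1 and to -0.20 without knockdown replicate 3.

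AQP4, the water channel of astrocyte endfeet, gave 2.93, 3.22 and 3.09 in the knockdown and 2.70, 2.80 and 2.64 in the wild type. All 3 knockdown arrays were above all 3 wild-type arrays, and all 6 values were within the olfactory receptor range. The wild-type values were below even the olfactory receptor median, which was at least 3.05 on every array. Thus AQP4 is not shown to be expressed here. Were it expressed, more cells with a transcript and more of it per cell could not be told apart in RNA from a whole culture. The signal of AQP4 was at 129% of the wild type (unadjusted 95% confidence interval, 109% to 153%), and its log2 difference was 0.37 ± 0.11 (SE). Over all genes tested it did not pass the threshold (limma adjusted p = 0.902).

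The glutamate transporters SLC1A3 and SLC1A2 clear glutamate from the synapse, SLC1A3 also in immature and radial glia. SLC1A3 gave 3.51, 3.68 and 3.67 in the knockdown and 3.79, 3.83 and 3.74 in the wild type. It was the single marker with all knockdown arrays below all wild-type arrays, and its log2 difference of -0.17 ± 0.10 (SE) had a confidence interval of -0.39 to 0.05 and was -0.11 without knockdown replicate 1. SLC1A2 gave 3.46, 3.56 and 3.40 against 3.63, 3.32 and 3.53. Its groups overlapped, with a log2 difference of -0.02 ± 0.11 (SE) and a confidence interval of -0.27 to 0.23. Both transporters were within the olfactory receptor range on all 6 arrays.

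ALDH1L1, which oxidises formyl-tetrahydrofolate, gave 4.47, 4.75 and 4.60 in the knockdown and 4.83, 4.22 and 4.24 in the wild type. Wild-type replicate 1 was the highest of the 6 arrays and the other wild-type arrays were the lowest, so the wild type spanned the whole knockdown group. The log2 difference of 0.18 ± 0.16 (SE) became 0.38 without wild-type replicate 1, 0.07 or 0.08 without either of the other wild-type arrays and 0.10 without knockdown replicate 2. S100B, a calcium-binding protein of astrocytes, gave 3.20, 3.14 and 3.34 against 3.05, 3.18 and 3.13. The groups overlapped by wild-type replicate 2 and knockdown replicate 2, and the log2 difference of 0.11 ± 0.10 (SE) fell to 0.05 if knockdown replicate 3 was dropped, or to 0.07 if wild-type replicate 1 was.

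CNP, the myelin-associated cyclic nucleotide phosphodiesterase, had the highest percentile of the 10 probe sets among all genes, 89.2. It gave 6.64, 6.48 and 6.33 in the knockdown and 6.17, 5.99 and 6.14 in the wild type, so the lowest knockdown array was above the highest wild-type array. CNP was at 130% of the wild type (unadjusted 95% confidence interval, 110% to 155%), and its log2 difference of 0.38 ± 0.11 (SE) had an adjusted p of 0.902 in limma. Dropping knockdown replicate 1 gave 0.30, the lowest of the 6 such values, and dropping knockdown replicate 3 gave 0.46, the highest. OLIG2 gave 4.54, 4.82 and 4.85 against 4.74, 4.66 and 4.69. Knockdown replicate 1 was the lowest and the other knockdown arrays the highest, with a log2 difference of 0.04 ± 0.11 (SE) that became 0.14 on dropping knockdown replicate 1, or -0.02 on dropping replicate 3.

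The progenitor markers gave overlapping groups. NES gave 5.96, 5.78 and 5.76 in the knockdown and 5.69, 5.88 and 5.61 in the wild type. Wild-type replicate 2 lay within the knockdown values, and the log2 difference was 0.11 ± 0.11 (SE) with a confidence interval of -0.14 to 0.36. It was 0.04 without knockdown replicate 1, 0.05 without wild-type replicate 3 and 0.18 without wild-type replicate 2. SOX2 gave 3.64, 4.0 and 3.72 against 3.73, 3.88 and 3.51. Each group spanned most of the other, with a log2 difference of 0.08 ± 0.13 (SE) and a confidence interval of -0.21 to 0.37, and the value turned to -0.03 when knockdown replicate 2 was left out and to -0.02 when wild-type replicate 3 was. It was 0.15 and 0.17 when knockdown replicate 1 or wild-type replicate 2 was left out.

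**Figure D2:**
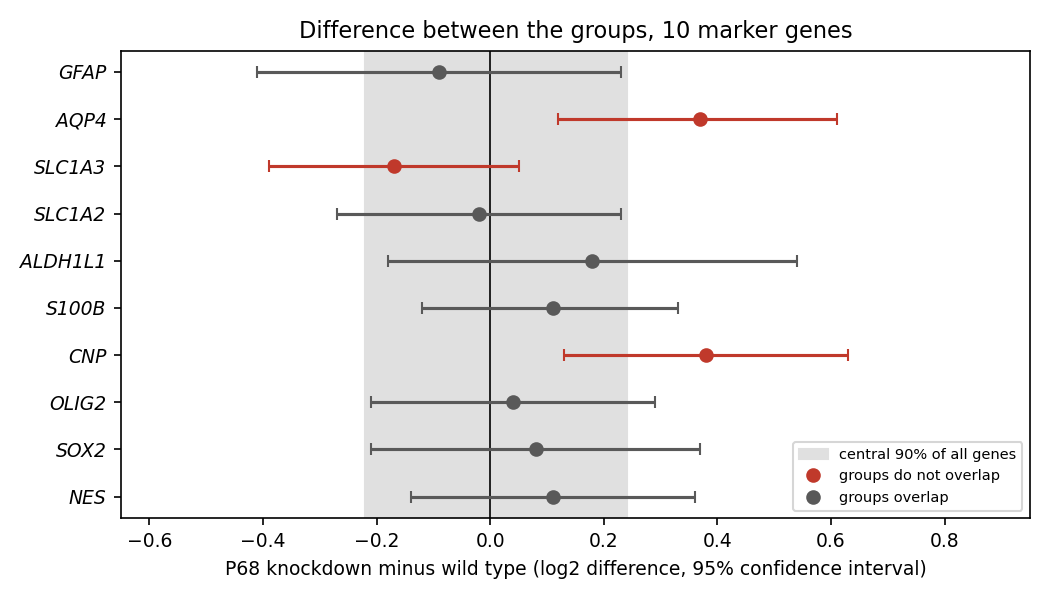
Log2 difference of knockdown minus wild type for each marker with its 95% confidence interval from limma, not adjusted for the number of genes; the grey band holds the central 90% of all 18417 genes, from -0.22 to 0.24. AQP4 at 0.37 and CNP at 0.38 lie above the band, and the other 8 lie within it.

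Counted together, none of the 10 markers passed an adjusted p of 0.05 in limma, and 2 had an unadjusted p under 0.05, CNP with 0.00664 and AQP4 with 0.00724. Over all genes 0 passed in limma (0% of those tested), and 5.09% had an unadjusted p under 0.05. The groups did not overlap for 3 of the 10 markers, against 10.1% of all genes. Of these 3, CNP and AQP4 were higher in the knockdown, where 5.98% of all genes were, and SLC1A3 was lower, where 4.15% of all genes were. An absolute difference as large as that of AQP4 was found in 1.74% of genes. The markers were chosen with earlier results of these data known, so these counts and shares are a description and no independent evidence. In an exact permutation test (two-sided) CNP, AQP4 and SLC1A3 each had p = 0.1, the lowest p that such a design can reach. Positive log2 differences were found for 7 of the 10 markers and negative ones for 3, and their median was 0.093, beside 52.5% of all genes above 0 and a median of 0.010 over all genes. The olfactory receptor genes had a median difference of 0.040, with 210 above 0 and 129 below. The part of this shift in the values of the dim markers was not tested.

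Genes whose signals followed those of a marker most closely were named for the 4 markers at or above the median gene, by the root mean square difference between profiles over the 6 arrays after each gene was centred on its own mean. Closest to CNP were ASCL2 and TMEM92, each with a root mean square difference of 0.044. Closest to NES were ZFHX3 with 0.009 and CHRNA5 with 0.020. For OLIG2 they were FAM170A with 0.012 and RAB33A with 0.021, and for GFAP they were OR10H2 with 0.036 and THSD7A with 0.040. These were the smallest of 18416 values each, over 6 arrays only, and describe likeness in these arrays.

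Other astrocyte markers were compared from a list of 26 genes, 25 of them measured. None passed the threshold in limma and 2 had an unadjusted p under 0.05, as did 5.09% of all genes. The log2 difference was positive for 17 and negative for 8 (median 0.053), and the groups did not overlap for 3 higher and 1 lower. Over all genes 52.5% lay above 0, and the groups did not overlap for 5.98% higher and 4.15% lower. The largest differences were those of FABP7, the fatty acid binding protein of radial glia, and KCNJ10, a potassium channel of astrocytes. FABP7 gave 3.92, 3.78 and 3.87 in the knockdown and 3.29, 3.55 and 3.45 in the wild type, a log2 difference of 0.43 ± 0.11 (SE). KCNJ10 gave 3.74, 3.99 and 3.90 against 3.49, 3.45 and 3.58, a log2 difference of 0.37 ± 0.11 (SE). For both, all knockdown arrays were above all wild-type arrays, both signals were within the olfactory receptor range, and the limma adjusted p was 0.902. Above the range were 9 of its 25 genes, 36.0% beside 41.8% of all genes, and the brightest were the glial transcription factors NFIB at a mean of 7.95 and NFIA at 7.64.

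The oligodendrocyte lineage list gave a similar division. Of its 22 measured genes, 15 lay above 0 and 7 below, with a median of 0.075, none past the threshold in limma and 1 with an unadjusted p under 0.05. Over all genes 52.5% lay above 0 and 5.09% had such an unadjusted p. UGT8, which makes the myelin lipid galactosylceramide, was higher on all 3 knockdown arrays, with a log2 difference of 0.27 ± 0.12 (SE). Its signals were within the olfactory receptor range. The myelin protein MAL gave 0.25 ± 0.15 (SE). MAL gave 0.09 on dropping knockdown replicate 2, or 0.41 on dropping replicate 3, and UGT8 gave 0.18 without wild-type replicate 3. Above the olfactory receptor range were 6 of the 22, 27.3% beside 41.8% of all genes, with the brightest being the tight junction protein CLDN11 at a mean of 6.19 and OLIG1, the relative of OLIG2, at 5.81.

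Among 28 measured genes of neural and glioma stem cells, 14 lay on each side of 0 with a median of 0.00, and for none did the groups separate. In limma 0 of them passed, and 0 had an unadjusted p under 0.05. Above the olfactory receptor range were 19 of the 28, or 67.9%, beside 41.8% of all genes, a description without a test. They were led by the neural transcription factor POU3F2 at a mean of 6.96 and by the signal transducer STAT3 at 6.59. POU3F2 works with SOX2 and OLIG2 in glioma stem cells. Within the range were, among others of the list, PROM1, PAX6 and CD44, with means of 3.29, 3.34 and 3.59. SOX2, one of the 10 markers and not on this list, was also within it, at 3.75. Of the 12 intermediate filament genes, 9 were above it. Whether the share of the stem list reflects a stem programme was not tested. STAT3 had a log2 difference of -0.21 ± 0.10 (SE) and SOX1, a close relative of SOX2, one of 0.20 ± 0.13 (SE), which was 0.10 when replicate 1 of either group was left out.

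GFAP and nestin are intermediate filament proteins, and the other filament genes were led by vimentin (VIM), which polymerises with both, at a mean of 7.60 and lamin A (LMNA) at 6.62. Of the 12 genes, 9 lay below 0 and 3 above, with a median of -0.070, and in limma 0 passed the threshold and 0 had an unadjusted p under 0.05. The largest differences were those of the neurofilaments NEFL and NEFM, at -0.23 ± 0.35 and -0.23 ± 0.12 (log2 difference ± SE). NEFL gave 7.25 in knockdown replicate 1 and 7.35 in wild-type replicate 1, and between 5.96 and 6.34 on the other arrays, so that its difference became -0.64 when the former was left out and 0.11 when the latter was. NEFM gave -0.13 without knockdown replicate 2. Of 23 relatives of the markers by gene family, 17 lay above 0 and 5 below, with a median of 0.080, and again 0 passed in limma and 0 had an unadjusted p under 0.05. The brightest were SOX3 at a mean of 6.55 and S100A6 at 6.5, and the largest differences were those of the amino acid transporter SLC1A5 and the water channel AQP3, both at 0.21 ± 0.12 (log2 difference ± SE). Without knockdown replicate 2 they were 0.09 and 0.10.

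**Figure D3:**
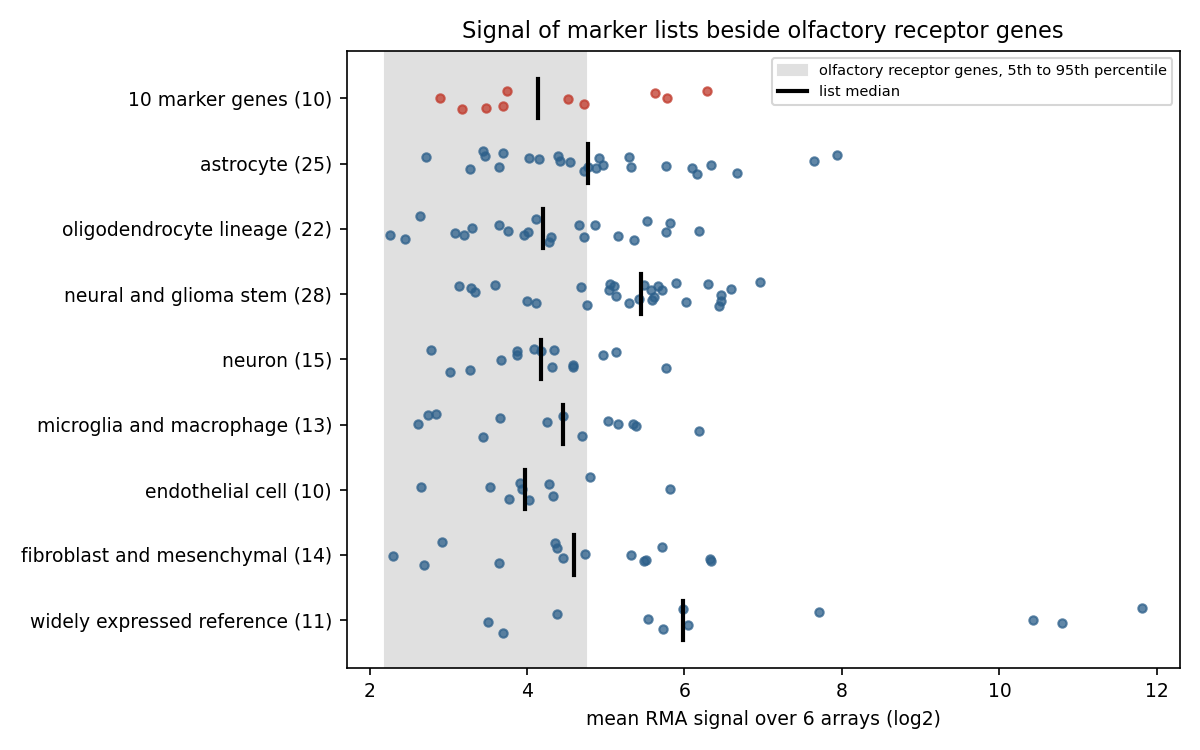
Mean log2 signal over the 6 arrays for each measured gene of the marker lists, with the list median as a bar and the olfactory receptor range in grey; the number of genes is in brackets. The 10 markers have a median of 4.13, the neural and glioma stem list 5.45 and the neuronal list 4.18.

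Markers of other cell types were compared in the same way. The mean signal over the 15 neuronal genes was 4.14 to 4.24 on the knockdown and 4.09 to 4.18 on the wild-type arrays, and over the 13 microglia and macrophage genes 4.32 to 4.35 against 4.24 to 4.26. Over the 10 endothelial genes it was 4.08 to 4.20 against 4.07 to 4.09, and over the 14 fibroblast and mesenchymal genes 4.61 to 4.64 against 4.49 to 4.58. The 10 glial and stem markers had 4.36 to 4.51 against 4.28 to 4.40. The median log2 difference was 0.037 for neurons, 0.067 for microglia, 0.063 for endothelium and 0.112 for fibroblasts, where 12 of 14 genes lay above 0. Thus lists of unrelated cell types lay on the same side of 0 as the glial markers. Their part in the marker values was not tested.

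Within these lists no gene passed the threshold in limma, and an unadjusted p under 0.05 was found for 2 neuronal, 1 microglial, 1 endothelial and 0 fibroblast genes. Such a p was found for 5.09% of all genes. The lipopolysaccharide co-receptor CD14 gave 4.34, 4.65 and 4.39 in the knockdown and 4.16, 3.79 and 4.17 in the wild type, a log2 difference of 0.42 ± 0.13 (SE) without overlap. The neuronal genes STMN2 and ELAVL3 gave 0.32 ± 0.11 and 0.28 ± 0.10, the endothelial tight junction gene CLDN5 0.27 ± 0.10 and the microglial TMEM119 0.29 ± 0.14 (log2 difference ± SE). Lower in mean were the endothelial receptor TIE1 at -0.20 ± 0.13 and fibronectin (FN1) at -0.21 ± 0.10, while the smooth muscle gene TAGLN gave 0.22 ± 0.16. The signals of CD14, STMN2, ELAVL3, TIE1 and TAGLN were within the olfactory receptor range on every array. Leaving out single arrays brought TIE1 to -0.09 (without knockdown replicate 3), TAGLN to 0.09 (without knockdown replicate 2) and TMEM119 to 0.17 (without knockdown replicate 3). Their brightest genes included COL1A1 at a mean of 6.33, TIMP1 at 6.34, CLDN5 at 5.81, TMEM119 at 5.38 and TEK at 4.80. The widely expressed genes went the other way, with 10 of 11 below 0 and a median of -0.103. Among them TBP gave -0.20 ± 0.11 and YWHAZ -0.17 ± 0.12 (log2 difference ± SE). Without knockdown replicate 2 that median was 0.030, YWHAZ gave -0.04 and TBP -0.11, and with cyclic loess between the arrays the median was -0.035 and YWHAZ gave -0.05.

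**Figure D4:**
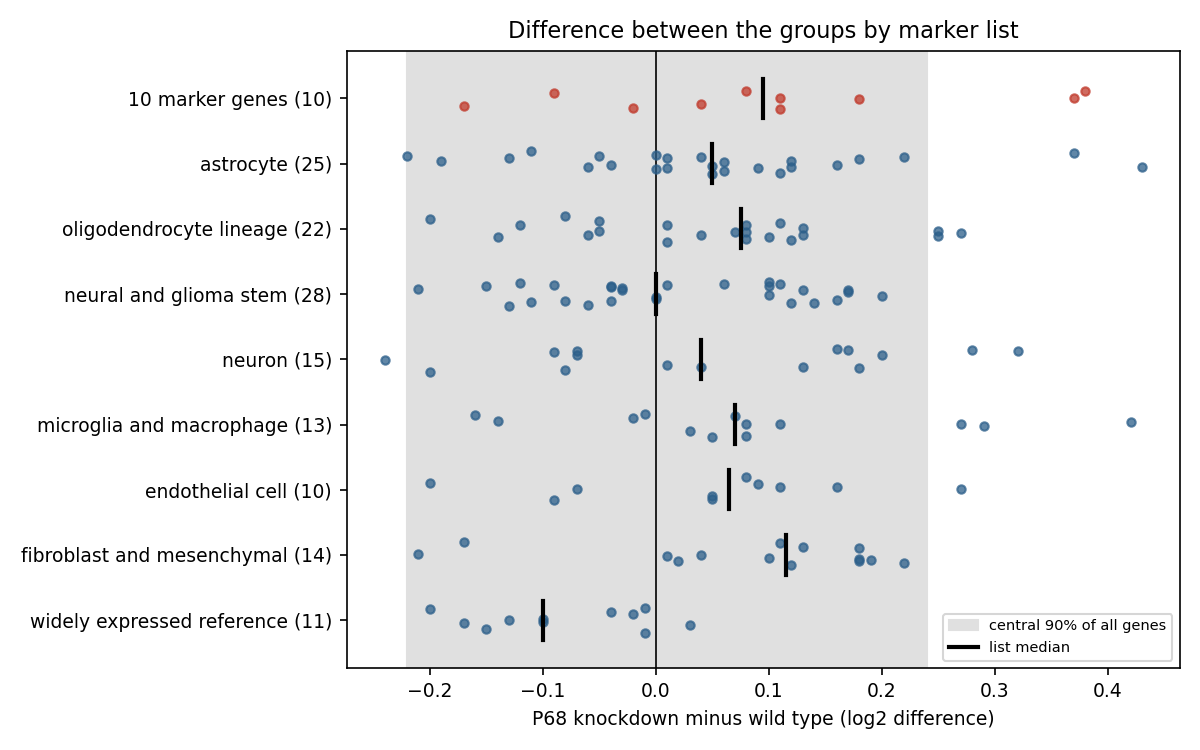
Log2 difference of knockdown minus wild type for each measured gene of the marker lists, with the list median as a bar and the central 90% of all genes in grey. The medians of the 10 markers (0.093) and of the fibroblast list (0.112) lie above 0, and that of the widely expressed genes (-0.103) below.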

How the data were processed

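Total RNA of U-87 cells was measured on 6 arrays, 3 per group. The deposited table holds log2 signals of 29096 probe sets, rounded to 2 decimals, and the authors made them with RMA, per the submitters' processing notes. RMA is meant to equalise the signal distribution over arrays, which hides shifts common to most genes. The deposited values were not fully equal in distribution. Repeating quantile normalisation on them moved the median difference of the widely expressed genes from -0.103 to -0.034 and the difference of DDX5 from -0.49 to -0.40. The software, its version and the genome build were not given in the sources used here.

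Platform annotation gave 19460 probe sets a single gene symbol; 1754 had several and 7882 had no symbol. The brightest probe set of each of 18417 genes was kept. Groups were compared with limma 3.58.1 in R 4.3.3 (lmFit and eBayes, two-sided), adjusted by Benjamini-Hochberg over all genes, threshold 0.05. The fit was tested on simulated data. The median SE was 0.117, and the number of arrays limits the precision.

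The markers and the 10 companion lists (183 genes, 170 measured) were chosen with earlier results of these data known. Named were all markers, DDX5 and, per list, the 2 brightest genes and the 2 with the largest absolute difference, plus the 2 genes closest in profile to each marker at or above the median gene (4.67).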

Additional observations from a re-analysis of the deposited data

How the results depend on the processing

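The comparison was repeated under 15 other settings: array median centring, repeated quantile normalisation, cyclic loess, the dimmest 40% of genes left out, probe sets averaged per gene, probe sets tested singly, a robust variance trend on intensity, weighted arrays, the replicate number as a block, and each array left out in turn. No gene and no marker passed the threshold in limma under any of them, and marker adjusted p-values ran from 0.661 to 0.998. Of 145 marker differences under these settings, 138 kept their direction. The 7 that turned arose with an array left out: GFAP ran from -0.20 to 0.07, SLC1A2 from -0.11 to 0.05, SOX2 from -0.03 to 0.17 and OLIG2 from -0.02 to 0.14. NEFL ran from -0.64 to 0.11. AQP4 stayed between 0.30 and 0.44 and SLC1A3 between -0.20 and -0.11 with single arrays left out. The median of the markers was lowest, 0.042, when wild-type replicate 3 was left out and highest, 0.129, when knockdown replicate 1 was.

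The count of markers without overlap was 3 to 5 with an array left out, where smaller groups separate more easily, and 5 without wild-type replicate 2. It was 1 with the dimmest 40% left out, where 5 markers remained. Above the olfactory receptor range were 4 markers at the 90th percentile (OLIG2 added) and 1 at the 99th, CNP. In the exact permutation test the smallest p among the markers was 0.1 under each setting in which it was computed. That is the lowest p these designs can reach, and any marker without overlap reaches it. Its constancy therefore shows no stability. With the replicate block, 0 genes passed in limma and the marker median was 0.093. The labels do not say that replicate numbers pair the arrays, so the numbers were not taken as pairs. The deviations of same-numbered arrays from their group means correlated with r = 0.268, -0.027 and 0.125 across genes. The value of 0.268, for replicate 1, was the highest of any knockdown and wild-type array, and not every array correlated best with its own number. Whether the replicate 1 arrays share a source was not tested. Signals within the olfactory receptor range, those of 7 markers on at least some arrays, limit what can be read from their differences.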

Other observations

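Replicate 1 of both groups stood apart in further genes, chosen after their values were seen. The neurofilament gene NEFH gave 6.26 in knockdown replicate 1 and 6.26 in wild-type replicate 1, and between 5.65 and 5.91 on the other 4 arrays. The lamin gene LMNB1 gave 6.19 and 6.54 on these arrays and 5.62 to 5.88 on the others. VIM gave 7.94 and 7.87 against 7.25 to 7.62, and LMNA 6.87 and 6.91 against 6.39 to 6.60. Outside the filament genes, the astrocyte list held GLUL with 7.02 and 6.80 against 6.49 to 6.59. It also held NDRG2 with 6.05 and 6.0 against 5.54 to 5.76. The filament gene DES differed, with 5.23 and 5.48 against 5.40 to 5.72. The filament genes SYNM, PRPH, NEFM, INA, PLEC and LMNB2 also lacked the pattern. In the astrocyte list SOX9 went the other way, with 6.27 and 6.17 against 6.29 to 6.70. The share of the astrocyte list or of all genes with this pattern was not counted. Of the 10 glial and stem markers, 2 were highest and 3 lowest in knockdown replicate 1, and 2 were highest and 1 lowest in wild-type replicate 1.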
